A study of Homo sapiens
Mus musculus with 25 samples.

Results

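The zinc finger genes of chromosome 19 were taken as every gene of the counts table named ZNF followed by a number alone and placed on chromosome 19, which gave 241 of 38128 genes. They were 50.6% of the 476 genes with such a name in the whole table. Names with a letter after the number, such as ZNF585A, were not members. The counts came from poly(A)-enriched RNA of 25 tumours grown by HT29 cells, a human colorectal cancer line, in nude mice that drank doxycycline. PTPRK, the gene under study, encodes a receptor tyrosine phosphatase that binds itself across cell contacts.

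The 5 groups were WT tumours (wildtype HT29, n = 5), PTPRK KO tumours (PTPRK knockout with tGFP, n = 5), PTPRK tumours (knockout with PTPRK put back, n = 6), PTPRK.RQ tumours (knockout with PTPRK.R1095Q, n = 4) and PTPRK.C1089S tumours (knockout with PTPRK.C1089S, n = 5). Both substitutions lie in the phosphatase part of the protein, and the study treats both as catalytic mutants. It describes C1089S as trapping substrates, which could act in a dominant-negative way, while R1095Q did not appear to trap them. The study chose R1095Q to look at catalysis alone and describes no PTPRK.C1089S tumours. All 25 tumours had doxycycline, and the label of WT names no construct. The knockout cells were sorted for loss of PTPRK, and the inducible lines were integrated into them and sorted for tGFP, so each group is one cell line grown in several mice. A difference between 2 groups can therefore not be told apart from a difference between 2 cell lines. Per the study's methods each mouse received one injection of one line, in a description that names WT, PTPRK KO, PTPRK and PTPRK.RQ, so their tumours came from different mice. What the replicate numbers stand for is not given there or in the labels. The same methods give 4 or 5 sequenced replicates per line, whereas the labels list 6 PTPRK tumours. All 6 were kept, and an alternative fit below leaves out PTPRK replicate 6.

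Proteins of this family bind DNA through repeated C2H2 zinc fingers. Many carry a KRAB domain, through which they recruit TRIM28 and the histone methyltransferase SETDB1, and they are best known for silencing transposable elements. The genes multiplied by tandem duplication, so that relatives lie side by side in clusters, and chromosome 19 holds the largest of these clusters in the human genome. For most single members no target is firmly known, and a role is given below only where it is.

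PTPRK itself followed the labels. Its level was 298 to 333 CPM (counts scaled to a common library size with TMM factors) in WT, 28.1 to 75.9 in PTPRK KO, 1318 to 2275 in PTPRK, 971 to 1709 in PTPRK.RQ and 1139 to 1774 in PTPRK.C1089S. The groups with PTPRK put back thus lay above WT in every tumour. Library totals were 43727372 to 59355464 counts. The 12 colonic epithelium markers were all tested and summed to 13453 to 19783 CPM. The 23 markers of stroma, vessels and blood cells, which in a xenograft come from the host or from the tumour cells, summed to 2256 to 3183 CPM, and 0 of them had no count. Over the 14 of these markers that could be tested, the median log2 fold change was 0.34 in PTPRK.C1089S against PTPRK KO, beside 0.04 and 0.07 in the other lines with PTPRK put back, and their part in the results below was not tested. In bulk RNA, fewer cells of a type and less RNA per cell cannot be told apart. One tumour, PTPRK.C1089S replicate 4, stood apart. It had the lowest share of counts in ribosomal protein genes, 5.20%. Without it the comparison of PTPRK.C1089S with PTPRK called 69 members in place of 44. Counts of called members in PTPRK.C1089S that changed without it are therefore also given without it.

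Of the 241 members, 36 had no count in any tumour, 12 more had 10 counts or fewer over all 25, and 174 had enough counts to be tested among 18823 genes. Of those 174, 156 lay above the cutoff of 0.198 CPM in every tumour and 11 had at least 1 group wholly under it. Levels were low for most. The mean over the 25 tumours was above 1 CPM for 151 of the 174, above 10 CPM for 62 and above 100 CPM for 1. ZNF146, a short protein of zinc fingers with no KRAB domain, had the highest mean, 152 CPM, followed by ZNF865 with 58.9 and ZNF587 with 58.5. ZNF607, ZNF671 and ZNF615 were the lowest tested members with means of 0.0817, 0.106 and 0.116 CPM. These are counts per gene with no correction for length, so they rank how well a gene was counted and not how much RNA it made. All 241 names matched a gene in RefSeq, 240 as protein coding. Of the members, 154 overlapped another gene of the table, and reads were counted without regard to strand, so reads of such pairs cannot be told apart.

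Sorted by start, the members fell into 16 position groups when a new group began after a gap of more than 1 Mb. Of these, 9 held 5 or more members and together 232. On the short arm they lay at 2.8 to 2.9 Mb (5 members), 7.1 to 9.8 Mb (15), 11.5 to 12.6 Mb (25) and 19.7 to 24.1 Mb (37), and on the long arm at 34.7 to 35 Mb (5), 36.2 to 37.8 Mb (25), 43.5 to 45.1 Mb (24), 51.6 to 53.6 Mb (39) and 55.5 to 58.5 Mb (57). Positions are of GRCh38. How much of a group was expressed differed. At 36.2 to 37.8 Mb only 10 of 25 members could be tested and at 19.7 to 24.1 Mb 16 of 37, whereas at 11.5 to 12.6 Mb 22 of 25 could.

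Any difference among the 5 groups was called by edgeR's quasi-likelihood test for 105 of 174 members, or 60.3%, where 47.0% of all tested genes were called, and for 46.4% of the 211 tested ZNF genes of other chromosomes. The other 1172 tested genes of chromosome 19 were called in 62.0%, so the members' share lay close to that of their own chromosome.

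The share of all counts that fell in members was 0.203 to 0.245% in PTPRK KO, 0.184 to 0.210% in WT, 0.180 to 0.220% in PTPRK, 0.175 to 0.199% in PTPRK.RQ and 0.171 to 0.195% in PTPRK.C1089S. The PTPRK KO tumours were the highest group, and they overlapped WT and PTPRK but neither mutant. The mean of log2(CPM + 0.5) over the 116 tested members of the long arm, set against its WT mean, was 0.17 ± 0.11 (SD, n = 5) in PTPRK KO, -0.06 ± 0.10 (n = 6) in PTPRK, -0.20 ± 0.06 (n = 4) in PTPRK.RQ and -0.24 ± 0.05 (n = 5) in PTPRK.C1089S, with a WT SD of 0.06. Over the 58 tested members of the short arm it was 0.07 ± 0.12, 0.22 ± 0.14, 0.19 ± 0.14 and -0.02 ± 0.10 in the same order. On the long arm both mutants lay wholly below WT and PTPRK KO. On the short arm all 5 groups overlapped. Over ZNF genes of other chromosomes the 4 group means lay between 0.01 and 0.09. The division by arm was chosen after the values had been seen.

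**Figure D1:**
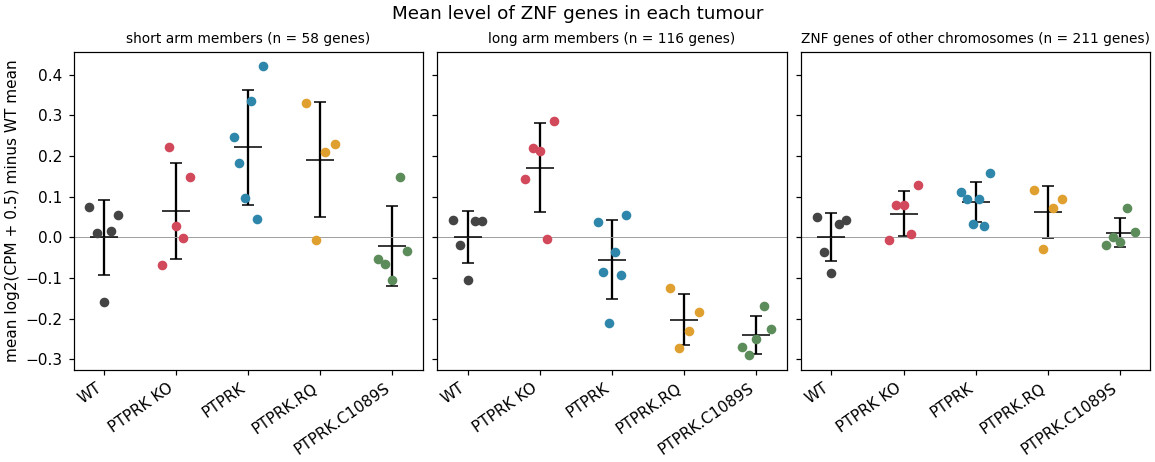
Mean log2(CPM + 0.5) minus the WT mean (y axis) in each of the 25 tumours by group (x axis) for the 58 short arm members, the 116 long arm members and the 211 ZNF genes of other chromosomes; points are tumours and bars the mean ± SD. Long arm members were highest in PTPRK KO and lowest in PTPRK.RQ and PTPRK.C1089S, while ZNF genes of other chromosomes stayed within 0.16 of the WT mean.

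Few members differed between PTPRK KO and WT. In PTPRK KO against WT, 8 of 174 members were called (4.60%, against 2.0% of all tested genes), 6 of them higher and 2 lower. Of all tested genes 0.776% were called higher and 1.23% lower. An unadjusted p under 0.05 was found for 52 of the 174 members and for 2656 of all 18823 tested genes. The median log2 fold change of members was 0.18, beside 0.01 over all tested genes, 0.08 over ZNF genes of other chromosomes and -0.01 over the other genes of chromosome 19. The 6 that rose, ZNF567, ZNF224, ZNF227, ZNF761, ZNF548 and ZNF749, all lay on the long arm. ZNF224, a KRAB repressor first described on the aldolase A promoter, rose from 10.3 to 13.1 CPM in WT to 14.8 to 20.8 in PTPRK KO (log2 fold change 0.62 ± 0.13 SE, edgeR adjusted p = 0.011). ZNF227 rose by 0.39 ± 0.08 (edgeR adjusted p = 0.0077), and for both genes the groups did not overlap. ZNF844 and ZNF607 fell. ZNF607 is one of the lowest tested members, with 74 counts over WT and 10 over PTPRK KO. Pooled over the group it was at 0.299 CPM in WT, above the filter's cutoff of 0.198 CPM, and at 0.0393 in PTPRK KO. It was under the cutoff in the 3 other groups too, so it was tested only through WT, where it was high. Its call is therefore no support for a fall. The count of called members was unstable. It was 4 without WT replicate 1, 3 without WT replicate 2, 4 without WT replicate 3, 5 without WT replicate 4, 5 without PTPRK KO replicate 2, 4 without PTPRK KO replicate 3 and 3 without PTPRK KO replicate 5, and DESeq2 called 16. ZNF224, ZNF227 and ZNF844 stayed called under every alternative run. All 8 called members were among the 109 tested members that overlap another gene of the table. Of the 65 that overlap none, 0 were called. The median log2 fold changes of these 2 sets were 0.14 and 0.22. Since strand was not used, reads of an overlapping gene may enter the calls, which was not tested. The highest adjusted p over the alternatives was 0.0908 for ZNF749, 0.1048 for ZNF761, 0.1043 for ZNF548 and 0.1277 for ZNF607.

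Long arm members were mostly lower in PTPRK than in PTPRK KO. In PTPRK against PTPRK KO, 51 of 174 members were called (29.3%, against 28.6% of all tested genes), a share at the background, but the directions split by position. On the long arm 36 of 116 fell and 1, ZNF331, rose (a call lost without PTPRK KO replicate 1, adjusted p = 0.0641), and on the short arm 11 of 58 rose and 3 fell. The rises were the less stable direction. The 12 over both arms became 7 with 19 tumours in 4 groups (without the PTPRK.C1089S tumours and PTPRK replicate 6), while the 39 falls became 47. With the replicate number as a term, rises and falls were 6 and 45. Over all tested genes 14.5% were called lower and 14.1% higher. Of ZNF genes of other chromosomes 14.2% were called higher, so the share of rises on the short arm was not far above the background. The median log2 fold change was -0.18 on the long arm and 0.23 on the short arm, beside 0.02 over all tested genes and 0.03 over ZNF genes of other chromosomes.

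Long arm members were also lower in both mutants. On the short arm 8 members were called higher in PTPRK.RQ and 0 in PTPRK.C1089S. In PTPRK.RQ against PTPRK KO, 61 members were called (35.1%, against 19.1% of all tested genes). On the long arm 52 of 116 were lower (44.8%) and none higher. On the short arm 8 of 58 were higher (13.8%) and 1 lower. Of all tested genes 9.46% were called higher and 9.68% lower, so the share of rises on the short arm was not far above the background. Medians were -0.37 on the long arm and 0.13 on the short arm. In PTPRK.C1089S against PTPRK KO, 73 were called (42.0%, against 16.2% of all tested genes), all of them lower, 68 on the long arm and 5 on the short arm, where 8.89% of all tested genes were called higher and 7.35% lower. Medians were -0.43 and -0.03. Without PTPRK.C1089S replicate 4 the count was 71, all lower, 64 on the long arm and 7 on the short arm. These 3 comparisons share the PTPRK KO tumours.

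**Figure D2:**
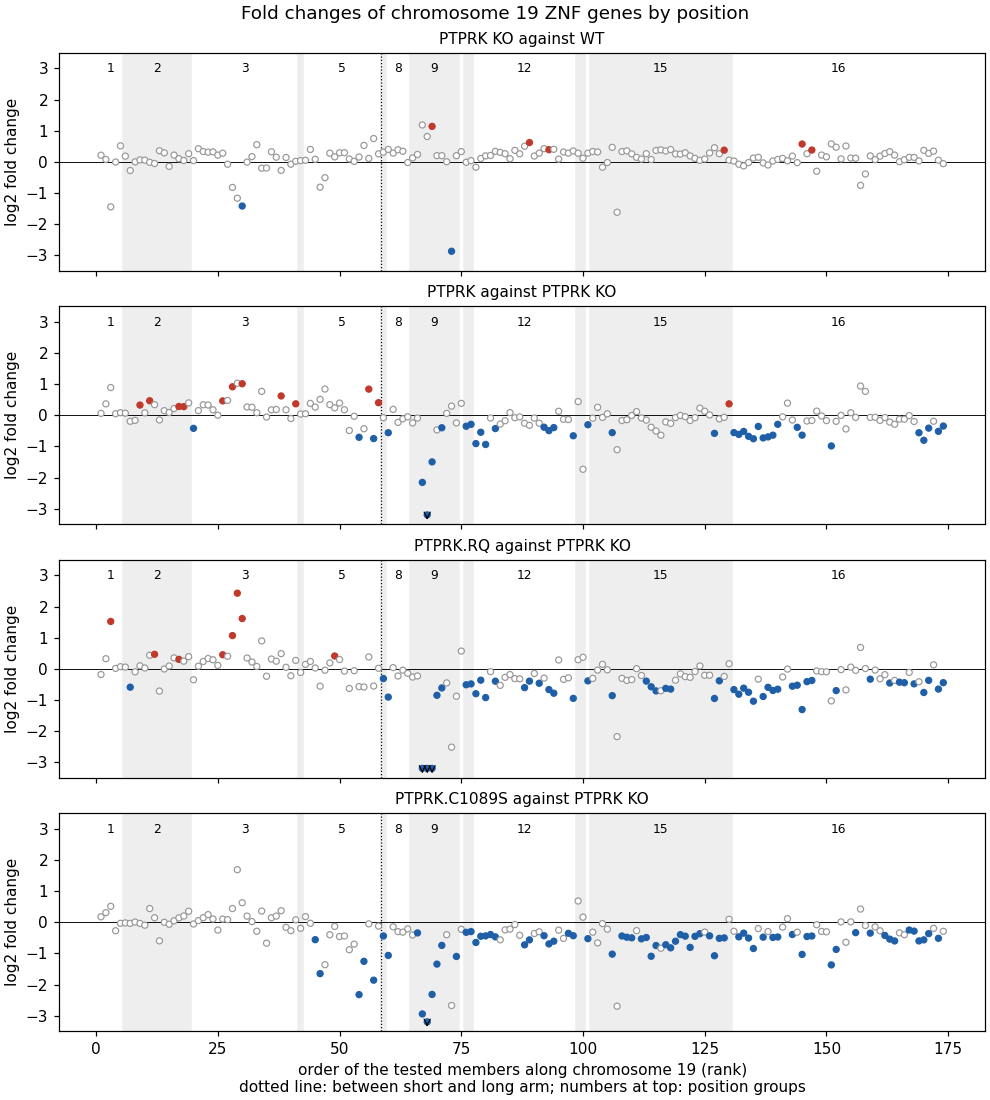
Log2 fold change (y axis) of the 174 tested members in their order along chromosome 19 (x axis, rank) in 4 comparisons; filled points passed the test (red higher, blue lower), open points did not, arrows mark values below the axis, shading separates position groups, and the dotted line lies between the arms. Blue points run along the long arm in the lower 3 panels, 36, 52 and 68 of 116 members from top to bottom. In the middle panels the red points lie mainly on the short arm. In the top panel all 6 red points lie on the long arm, and the bottom panel has none.

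On the long arm the fall was shared by other genes of the chromosome. Against PTPRK KO, the 622 tested long arm genes that were no members had medians of -0.41 for PTPRK, -0.50 for PTPRK.RQ and -0.36 for PTPRK.C1089S on the log2 scale, with 338, 336 and 261 called lower. On the short arm the 550 other genes had medians of -0.20, -0.09 and 0.02, where those of the members were 0.23, 0.13 and -0.03. In PTPRK against PTPRK KO, 169 of these other genes were called lower and 27 higher, and 3 members lower and 11 higher. Over all non-members, chromosome 19 had the lowest median of the 23 chromosomes compared (1 to 22 and X) for PTPRK set against PTPRK KO (-0.29, the others from -0.18 to 0.17) and for PTPRK.RQ set against it (-0.27, the next also -0.27), and the second lowest for PTPRK.C1089S (-0.15, the others from -0.26 to 0.06). The part of this chromosome-wide difference in the members' values was not tested. Over both arms the signs differed in PTPRK.C1089S against PTPRK, where the members' median was -0.26 with 42 lower and 2 higher. That of the other genes of chromosome 19 was 0.15 with 19 lower and 188 higher. They also differed in PTPRK.C1089S against PTPRK.RQ, with -0.12 for members (10 lower, 2 higher) and 0.13 for the others (3 lower, 55 higher). In PTPRK.RQ against PTPRK the medians were -0.14 for members and 0.02 for the others.

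Among the 9 position groups with 5 or more tested members, the lowest medians against PTPRK KO lay at 36.2 to 37.8 Mb. There 4, 5 and 7 of the 10 tested members fell in PTPRK, PTPRK.RQ and PTPRK.C1089S against PTPRK KO, and none rose. The medians were -0.32, -0.87 and -1.22. Each count and median includes ZNF566 and ZNF260, which were tested through groups where they were high, as given below. Without PTPRK.C1089S replicate 4, 8 members fell in PTPRK.C1089S. Of all tested genes 14.5%, 9.68% and 7.35% were called lower. Among the 6 other tested genes of the span the medians were -0.75, -1.91 and -1.88. ZNF585A, a zinc finger gene left out by its letter and named here after its values were seen, is one of them and went from 2.58 to 4.94 CPM in PTPRK KO to 0.388 to 0.676 in PTPRK.RQ and 0.339 to 1.10 in PTPRK.C1089S.

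ZNF567, at chr19:36687612-36727701 on the plus strand, had the smallest p of all members in the test over the 5 groups (edgeR adjusted p = 2.6e-09). Its CPM was 1.77, 0.938, 1.01, 1.53 and 0.878 in WT, 1.75, 3.30, 2.96, 2.11 and 3.45 in PTPRK KO, a lowest, median and highest of 0.666, 0.967 and 1.27 in PTPRK, 0.0576, 0.0613, 0.169 and 0.0557 in PTPRK.RQ, and 0.566, 0.584, 0.667, 0.300 and 0.599 in PTPRK.C1089S. Every PTPRK.RQ tumour was below every other tumour, every PTPRK.C1089S tumour was below all WT and PTPRK KO tumours, and PTPRK KO was the highest group with 1 tumour inside the range of WT. Against PTPRK KO the gene fell by 1.5 ± 0.25 on the log2 scale in PTPRK, by 4.94 ± 0.38 in PTPRK.RQ and by 2.32 ± 0.28 in PTPRK.C1089S (edgeR adjusted p = 9.9e-05, 5.3e-10 and 1.5e-06). PTPRK.RQ was also lower than PTPRK, by 3.44 ± 0.38 (edgeR adjusted p = 3.7e-06), and PTPRK.C1089S was higher than PTPRK.RQ, by 2.62 ± 0.40 (edgeR adjusted p = 0.00029). Its rise of 1.14 ± 0.26 in PTPRK KO against WT (edgeR adjusted p = 0.017) missed the threshold without WT replicate 2, WT replicate 5 or PTPRK KO replicate 5, where the adjusted p was 0.0532, 0.0571 and 0.0578.

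ZNF566 and ZNF260, which lie just before ZNF567, went the same way from lower levels. ZNF260, at chr19:36510687-36528271, had 148 counts over the 5 PTPRK KO tumours, 79 over WT, 8 over PTPRK, 0 over the 4 PTPRK.RQ tumours and 11 over PTPRK.C1089S. Against PTPRK KO it was at least 40.3-fold lower in PTPRK.RQ, with a floor of 3 counts over the group, and it was called in all 3 comparisons. ZNF566, at chr19:36445119-36489902, had 164 counts in PTPRK KO, 71 in WT, 43 in PTPRK, 1 in PTPRK.RQ and 20 in PTPRK.C1089S. The ratio of PTPRK KO to PTPRK.RQ was 134, with an exact 95% interval of 23.7 to 5328 that covers counting error only. ZNF566 overlaps another gene of the table and ZNF260 overlaps none. Pooled over each group, both lay above the filter's cutoff of 0.198 CPM in WT and PTPRK KO. In the 3 groups with PTPRK put back both lay under it. They thus entered the test through groups where they were high, so their calls against PTPRK KO are no support for a fall. ZNF875 and ZNF383, to the other side of the ZNF585 genes, fell less, by 0.74 ± 0.11 and 1.34 ± 0.21 in PTPRK.C1089S against PTPRK KO (edgeR adjusted p = 1.8e-05 and 3.8e-05). ZNF146 at the near end of the group fell by 0.34 ± 0.08 in that comparison (edgeR adjusted p = 0.0049). In PTPRK against PTPRK KO it changed by -0.09 ± 0.08 and did not pass.

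**Figure D3:**
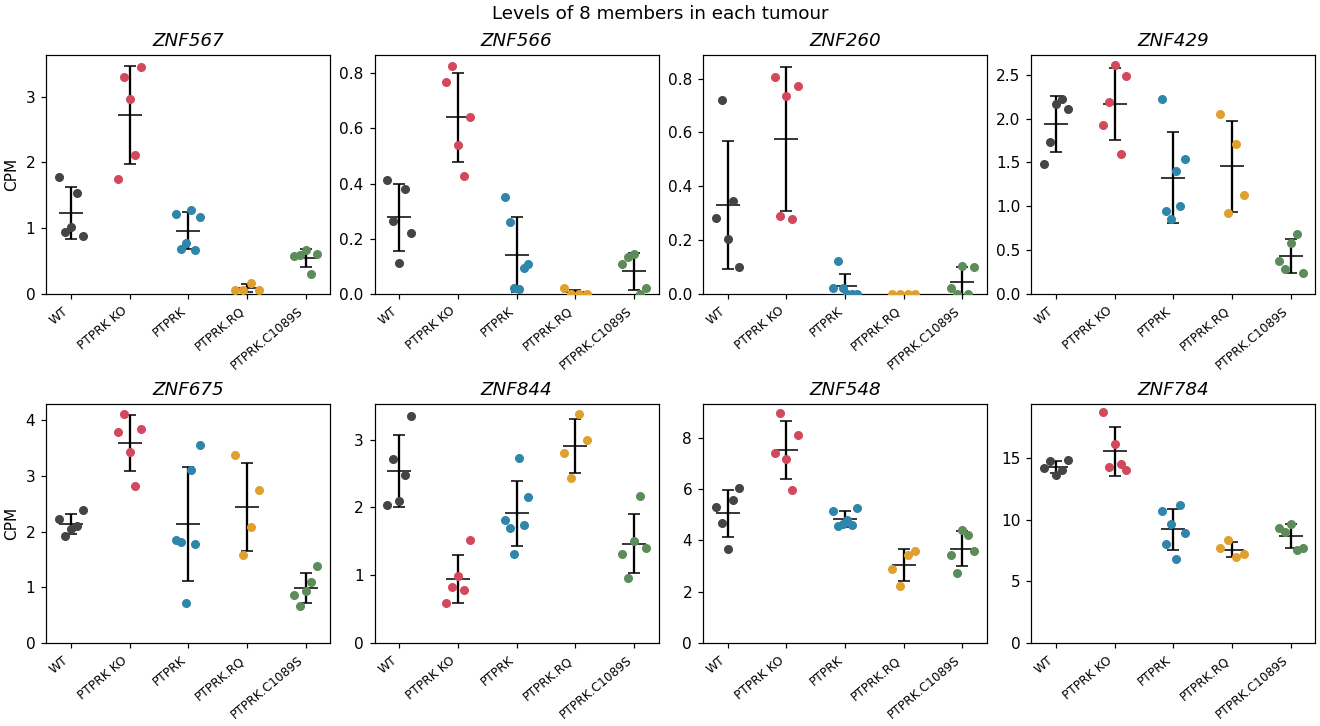
CPM (y axis, each from 0) of 8 members in each of the 25 tumours by group (x axis); points are tumours and bars the mean ± SD. ZNF567, ZNF566 and ZNF260 are at or near 0 in PTPRK.RQ, ZNF429 and ZNF675 are lowest in PTPRK.C1089S, and ZNF844 is lowest in PTPRK KO.

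At 19.7 to 24.1 Mb, the short arm cluster next to the centromere that expanded in primates, members were lower in PTPRK.C1089S than in the other lines. Of its 16 tested members 11 fell and none rose in PTPRK.C1089S against PTPRK (median -0.78), 6 fell against PTPRK.RQ (median -0.59) and 5 fell against PTPRK KO (median -0.51). Of all tested genes 5.76%, 2.16% and 7.35% were called lower in the same order. The medians of PTPRK and PTPRK.RQ, set against PTPRK KO, were 0.25 and -0.01. Only 5 other genes of the span were tested. Their medians were -0.51 against PTPRK and -0.71 against PTPRK.RQ, with 0 and 1 called. Without PTPRK.C1089S replicate 4, 12, 7 and 7 members fell.

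ZNF429, at chr19:21496682-21556270, was the clearest of them. Its CPM was 1.49, 1.73, 2.16, 2.22 and 2.12 in WT, 1.93, 2.19, 2.61, 1.60 and 2.49 in PTPRK KO, a lowest, median and highest of 0.852, 1.20 and 2.23 in PTPRK, 2.05, 0.919, 1.71 and 1.13 in PTPRK.RQ, and 0.370, 0.282, 0.584, 0.680 and 0.240 in PTPRK.C1089S. All 5 PTPRK.C1089S tumours lay below all 20 others. The gene was lower in PTPRK.C1089S by 2.32 ± 0.29 on the log2 scale than in PTPRK KO, by 1.62 ± 0.29 than in PTPRK and by 1.75 ± 0.31 than in PTPRK.RQ (edgeR adjusted p = 2.6e-06, 0.0016 and 0.0011).

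ZNF675, at chr19:23525631-23687220, encodes an inhibitor of TRAF6 signalling. Its CPM was 1.92 to 2.40 in WT, 2.82 to 4.11 in PTPRK KO, 0.724 to 3.54 in PTPRK, 1.57 to 3.38 in PTPRK.RQ and 0.659 to 1.38 in PTPRK.C1089S. It fell by 1.86 ± 0.28 in PTPRK.C1089S against PTPRK KO and by 1.11 ± 0.27 against PTPRK (edgeR adjusted p = 2.3e-05 and 0.0099). Its fall of 1.31 ± 0.29 against PTPRK.RQ (edgeR adjusted p = 0.0086) missed the threshold without PTPRK.RQ replicate 1 (adjusted p = 0.0561).

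ZNF91, at 23.3 Mb, is known for silencing SVA elements. Its CPM was 5.74, 3.75, 4.91, 4.32 and 4.65 in WT, 3.5, 7.37, 4.41, 4.03 and 5.90 in PTPRK KO, a lowest, median and highest of 7.11, 9.30 and 10.1 in PTPRK, 7.56, 5.60, 6.40 and 6.72 in PTPRK.RQ, and 4.03, 3.80, 5.50, 6.52 and 4.51 in PTPRK.C1089S. The PTPRK tumours lay above all WT and PTPRK.C1089S tumours and overlapped 1 tumour of PTPRK KO and 1 of PTPRK.RQ. The gene rose by 0.84 ± 0.16 in PTPRK against PTPRK KO and was lower by 0.89 ± 0.16 in PTPRK.C1089S than in PTPRK (edgeR adjusted p = 0.00048 and 0.0019). ZNF93, which is known to silence LINE-1 elements, had 33 counts over the 25 tumours and was too low to test.

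At 11.5 to 12.6 Mb, 5 of 22 tested members rose and 1 fell in PTPRK (22.7% higher, against 14.1% of all tested genes), 4 rose in PTPRK.RQ (18.2%, against 9.46%) and 0 were called in PTPRK.C1089S, each against PTPRK KO. Of the 5 rises in PTPRK, those of ZNF433 and ZNF709 lost the call under 17 of 32 alternatives each. Of the 4 rises in PTPRK.RQ, those of ZNF433, ZNF700 and ZNF878 lost it under 12, 10 and 3 of 32, and that of ZNF844 under 0. The 14 other tested genes of the span had medians of 0.19, 0.15 and 0.16, with 3, 3 and 1 called higher. ZNF844, at chr19:12064731-12081565, had a CPM of 2.03, 2.72, 2.1, 2.48 and 3.35 in WT, 0.590, 0.826, 0.986, 0.789 and 1.53 in PTPRK KO, a lowest, median and highest of 1.32, 1.78 and 2.73 in PTPRK, 2.80, 2.43, 3.38 and 2.99 in PTPRK.RQ, and 1.31, 0.960, 1.5, 2.16 and 1.40 in PTPRK.C1089S. PTPRK KO was the lowest group and did not overlap WT or PTPRK.RQ. The gene fell by 1.42 ± 0.23 on the log2 scale in PTPRK KO against WT and rose from there by 1.01 ± 0.23 with PTPRK and 1.62 ± 0.24 with PTPRK.RQ (edgeR adjusted p = 0.0013, 0.0017 and 2.3e-05). In PTPRK.C1089S the change of 0.63 ± 0.24 did not pass (edgeR adjusted p = 0.069). PTPRK.C1089S was lower than PTPRK.RQ by 0.99 ± 0.24 (edgeR adjusted p = 0.015), a call lost without PTPRK.RQ replicate 3 or PTPRK.C1089S replicate 2 (adjusted p = 0.0675 and 0.0525). ZNF878, just before it, overlaps other genes of the table and had 12 counts over PTPRK KO and 55 over PTPRK.RQ. Its rise of 2.43 ± 0.75 between them (edgeR adjusted p = 0.022) was lost without PTPRK KO replicate 1, PTPRK.RQ replicate 3 or PTPRK.RQ replicate 4 (adjusted p = 0.060, 0.0556 and 0.0534).

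At 43.5 to 45.1 Mb, 8, 10 and 12 of 21 tested members fell in PTPRK, PTPRK.RQ and PTPRK.C1089S against PTPRK KO and none rose. Without PTPRK.C1089S replicate 4, 9 fell in PTPRK.C1089S. Of all tested genes 14.5%, 9.68% and 7.35% were called lower. ZNF227 was the steadiest. Its CPM was 15.5, 16.2, 16, 15.6 and 16.6 in WT, 19.3, 21.5, 23.9, 18.2 and 21.9 in PTPRK KO, a lowest, median and highest of 13.4, 15 and 16.5 in PTPRK, 14.6, 12, 13.3 and 12.9 in PTPRK.RQ, and 12.3, 11.9, 13.4, 14.2 and 13.0 in PTPRK.C1089S. All PTPRK KO tumours lay above all others, and both mutants lay below WT. It fell by 0.49 ± 0.08, 0.67 ± 0.09 and 0.69 ± 0.08 against PTPRK KO (edgeR adjusted p = 4.5e-05, 3.1e-06 and 9.5e-07). ZNF428 fell from 48.1 to 60.6 CPM in PTPRK KO to 22.6 to 40.1 in PTPRK and 23.2 to 34.7 in PTPRK.RQ, by 0.94 ± 0.14 and 0.92 ± 0.16 (edgeR adjusted p = 3.3e-05 and 0.00014). Of the 39 other genes tested there, 21, 23 and 18 fell and none rose.

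At 51.6 to 53.6 Mb the falls were most numerous in PTPRK.C1089S. Of 29 tested members 2 fell in PTPRK, 8 in PTPRK.RQ and 20 in PTPRK.C1089S against PTPRK KO, with medians of -0.09, -0.31 and -0.50. Of all tested genes 14.5%, 9.68% and 7.35% were called lower there, and 5.76% and 2.16% in PTPRK.C1089S against PTPRK and against PTPRK.RQ. Tested directly, 16 fell and none rose in PTPRK.C1089S against PTPRK, and 2 fell and none rose in PTPRK.C1089S against PTPRK.RQ. In PTPRK.RQ against PTPRK 0 were called. There 7 of the 29 members and 2967 of all 18823 tested genes had an unadjusted p under 0.05. Without PTPRK.C1089S replicate 4, 22 members fell in PTPRK.C1089S against PTPRK KO, 23 against PTPRK and 5 against PTPRK.RQ. Of the 13 other genes tested in the span, 0 were called in PTPRK.C1089S against PTPRK, with a median of -0.07.

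At 55.5 to 58.5 Mb, the end of the long arm, 18, 24 and 24 of 44 tested members fell against PTPRK KO in PTPRK, PTPRK.RQ and PTPRK.C1089S and none rose (40.9%, 54.5% and 54.5% lower, against 14.5%, 9.68% and 7.35% of all tested genes). The members' medians were -0.20, -0.42 and -0.35. Without PTPRK.C1089S replicate 4, 20 members fell in PTPRK.C1089S. The 54 other tested genes of the span had medians of -0.36, -0.37 and -0.40, with 16, 15 and 17 called lower. ZNF784, at chr19:55620741-55624566, had a CPM of 14.2, 14.8, 13.6, 14.1 and 14.8 in WT, 18.8, 14.2, 16.2, 14.5 and 14.1 in PTPRK KO, a lowest, median and highest of 6.79, 9.30 and 11.2 in PTPRK, 7.68, 8.35, 7.01 and 7.19 in PTPRK.RQ, and 9.36, 9, 9.69, 7.59 and 7.73 in PTPRK.C1089S. The lines with PTPRK put back did not overlap WT or PTPRK KO. The falls against PTPRK KO were 0.75 ± 0.11, 1.04 ± 0.12 and 0.84 ± 0.11 (edgeR adjusted p = 1.6e-05, 7.9e-07 and 7.3e-06). Of its neighbours, ZNF579, ZNF865, ZNF581 and ZNF444 fell in the same 3 comparisons, by 0.47 to 0.89 on the log2 scale, and ZNF524 was also called lower in all 3. ZNF628 and ZNF787 were called lower in PTPRK and PTPRK.RQ but not in PTPRK.C1089S, and ZNF580 in PTPRK alone.

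ZNF548, at chr19:57389850-57402992, was one of the 5 members called between PTPRK.RQ and PTPRK. Its CPM was 5.29, 4.66, 3.67, 5.59 and 6.05 in WT, 7.40, 8.97, 7.17, 5.95 and 8.12 in PTPRK KO, a lowest, median and highest of 4.58, 4.72 and 5.27 in PTPRK, 2.88, 2.23, 3.42 and 3.60 in PTPRK.RQ, and 3.44, 2.73, 4.42, 4.22 and 3.59 in PTPRK.C1089S. PTPRK.RQ lay below WT, PTPRK KO and PTPRK and overlapped PTPRK.C1089S. It fell by 0.64 ± 0.14, 1.31 ± 0.16 and 1.03 ± 0.15 against PTPRK KO (edgeR adjusted p = 0.0015, 1.5e-06 and 1.5e-05). PTPRK.RQ was lower than PTPRK by 0.67 ± 0.16 (edgeR adjusted p = 0.012, 0.0666 without PTPRK.RQ replicate 2). ZNF264 in the same group was also lower in PTPRK.RQ than in PTPRK, by 0.37 ± 0.08 (edgeR adjusted p = 0.0074). ZNF587 and ZNF417, near-identical neighbours known to repress HERVK elements and whose reads may be shared, fell by 0.54 ± 0.09 and 0.60 ± 0.13 in PTPRK.C1089S against PTPRK KO (edgeR adjusted p = 0.00017 and 0.0015).

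**Figure D4:**
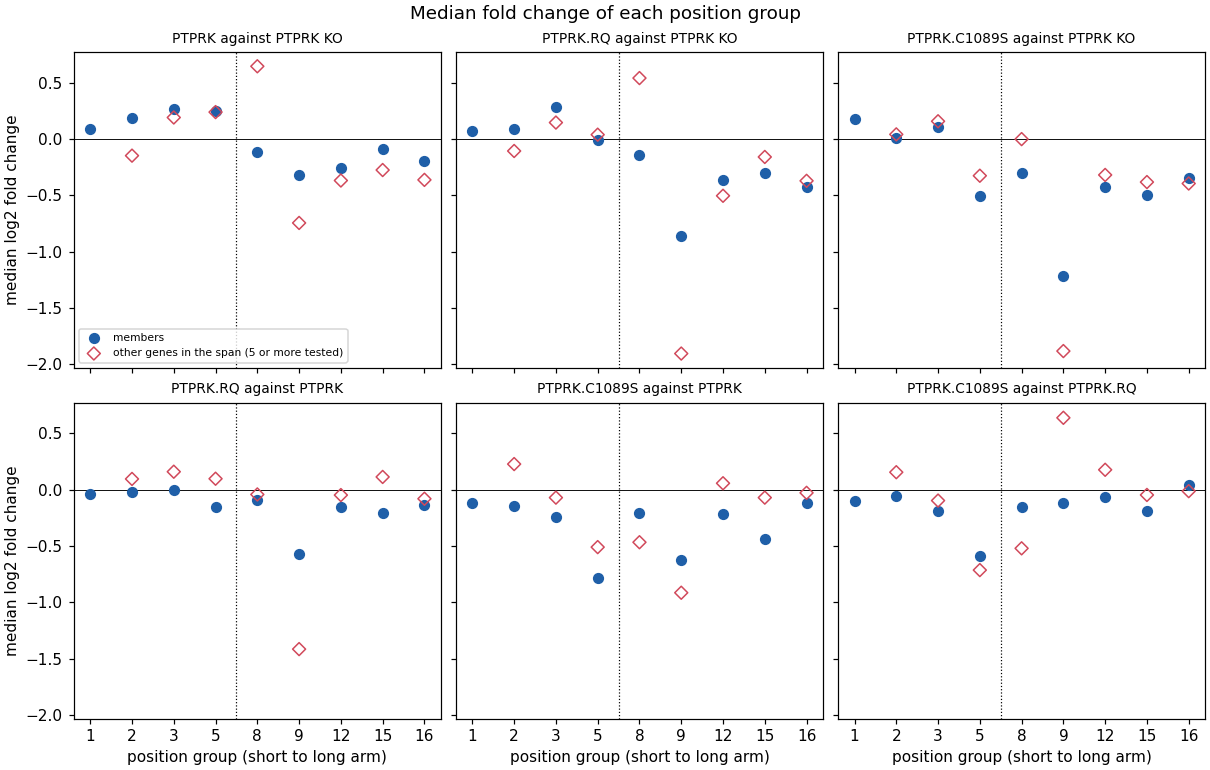
Median log2 fold change (y axis) of the tested members (blue points) and of the other tested genes in the same span (red diamonds) for the 9 position groups with 5 or more tested members (x axis, group number from short to long arm) in 6 comparisons; the dotted line lies between the arms. Of these, group 9 (36.2 to 37.8 Mb) is lowest in all 3 comparisons with PTPRK KO, and group 5 (19.7 to 24.1 Mb) is lowest in PTPRK.C1089S against PTPRK and against PTPRK.RQ.

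Between the lines with PTPRK put back, few members differed for PTPRK.RQ and many for PTPRK.C1089S. In PTPRK.RQ against PTPRK, 5 members were called (2.87%, against 3.38% of all tested genes), ZNF566, ZNF567, ZNF264, ZNF543 and ZNF548, all lower, where 1.54% of all tested genes were called higher and 1.84% lower. ZNF567 and ZNF264 stayed called under every alternative run, while the highest adjusted p was 0.0820 for ZNF566 and 0.1073 for ZNF543. The count was 3 without PTPRK replicate 2, 2 without PTPRK.RQ replicate 2 and 3 without PTPRK.RQ replicate 4. The members' median was -0.14 beside 0.01 over all tested genes. In PTPRK.C1089S against PTPRK, 44 were called (25.3%, against 13.2% of all tested genes), 42 lower and 2 higher, ZNF428 and ZNF653, where 5.76% of all tested genes were called lower and 7.49% higher. Both rises missed the threshold under some alternatives, with adjusted p up to 0.0754 and 0.1036. That count was 69 without PTPRK.C1089S replicate 4, and 26, 23, 29 and 28 without PTPRK.C1089S replicates 1, 2, 3 and 5, and 26 without PTPRK replicate 4. In PTPRK.C1089S against PTPRK.RQ, 12 were called (6.90%, against 4.93% of all tested genes), 10 lower and 2 higher, ZNF567 and ZNF358 (lost without PTPRK.RQ replicate 3, adjusted p = 0.0703), where 2.16% of all tested genes were called lower and 2.77% higher. That count was 29 without PTPRK.C1089S replicate 4, 19 without PTPRK.RQ replicate 2, 7 and 5 without PTPRK.C1089S replicates 1 and 2, and 5 and 4 without PTPRK.RQ replicates 1 and 3.

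The 36 genes listed for the KRAB silencing machinery and related chromatin factors were all tested, and most did not pass. In PTPRK KO against WT 0 were called by edgeR. Against PTPRK KO, 9 fell and 2 rose for PTPRK, 7 fell and 1 rose for PTPRK.RQ, and 6 fell and 0 rose for PTPRK.C1089S, with medians of -0.06, -0.10 and -0.06. The shares called in either direction, 30.6%, 22.2% and 16.7%, lay near those of all tested genes, 28.6%, 19.1% and 16.2%. The shares called lower, 25%, 19.4% and 16.7%, lay above those of all tested genes, 14.5%, 9.68% and 7.35%. The shares called higher, 5.56%, 2.78% and 0%, lay below theirs, 14.1%, 9.46% and 8.89%. Whether these shares differ beyond chance was not tested. TRIM28, the corepressor that KRAB domains bind, lies itself on the long arm of chromosome 19. Its log2 fold change against PTPRK KO was -0.69 ± 0.09 in PTPRK, -0.86 ± 0.10 in PTPRK.RQ and -0.62 ± 0.10 in PTPRK.C1089S (edgeR adjusted p = 5.9e-06, 9.1e-07 and 4.1e-05). The methyltransferases EHMT1 and EHMT2, which place H3K9 methylation on euchromatin, and MTA2 and MORC2, a NuRD subunit and an ATPase that acts with the HUSH complex, also fell in all 3 comparisons, EHMT2 the most in PTPRK.RQ, by 0.63 ± 0.09. These 4 were picked from the list once their values were known. In PTPRK.RQ against PTPRK KO the median log2 fold change was -0.24 over the tested genes of chromosome 6, which holds EHMT2. It was -0.02, -0.004 and -0.02 over chromosomes 9, 11 and 22, which hold EHMT1, MTA2 and MORC2. In PTPRK against PTPRK KO the medians of chromosomes 6, 9, 11 and 22 were 0.02, -0.16, 0.01 and -0.05. In PTPRK.C1089S against PTPRK KO they were -0.06, -0.10, -0.12 and 0.05. The part of such chromosome-wide differences in these falls was not tested. SETDB1, ATF7IP, MPHOSPH8, TASOR and PPHLN1 passed in none of the 7 comparisons.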

How the data were processed

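RNA was sequenced from 25 xenograft tumours. The deposited counts are raw reads per gene. Per the study's methods and the labels, trimmed reads were mapped by the authors to the human (GRCh38) and mouse (GRCm38) genomes in separate runs of HISAT2 (2.1.0 in the submitters' processing notes), who then dropped poorly mapped reads and counted exon overlaps per Ensembl gene without regard to strand. Human reads close to mouse sequence and reads shared by near-identical paralogs could therefore shift a count. Library totals were 43727372 to 59355464. Of 38179 rows, 51 repeated an identifier and were dropped. Genes passing filterByExpr were fitted in all 25 tumours with edgeR 4.0.16 in R 4.3.3 (TMM scaling, robust quasi-likelihood test, 1 coefficient per group, 7 pairwise comparisons and 1 test over the 5 groups). P-values were Benjamini-Hochberg adjusted over all 18823 tested genes, called at 0.05, and measure the spread between tumours, whose independence the labels do not state. Scores used a pseudocount of 0.5. Folds against 0 used a floor of 3 counts over the group. Exact 95% intervals and floors cover counting error only. Named members were PTPRK, the 3 largest rises and falls per comparison among called members with a mean log2 CPM above 0, the 10 smallest p in the 5-group test, the 3 highest and 3 lowest tested members, members of a position group with at least 3 called in one direction, and the list of silencing genes. ZNF585A is outside these and was named after its values were seen. RefSeq names were used for identity alone, and no sequence was analysed here. Members and lists were chosen with earlier results of these data known. Alternatives were other scalings, no filter, DESeq2 1.42.0, the replicate number as a term, fewer groups, leaving out each tumour, and gaps of 0.5 and 2 Mb. The fit was tested on simulated data.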

Additional observations from a re-analysis of the deposited data

Results flagged for a closer look

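Dixon's criterion was applied to 64 sets of a score or a named member's CPM in a group of 4 to 6 tumours and marked 6 of them, each because one tumour lay far from the others of its group. Chance alone marks about 1 in 20. WT replicate 3 had a short arm score of -0.16, the nearest WT tumour being at 0.01, and PTPRK.C1089S replicate 4 had 0.15, the nearest being at -0.03. ZNF260 was at 0.12 CPM in PTPRK replicate 2, with 0.0213 next. ZNF566 was at 0.0192 CPM in PTPRK.RQ replicate 1, a single count, and at 0 in the other PTPRK.RQ tumours. ZNF567 was at 0.169 CPM in PTPRK.RQ replicate 3, with 0.0613 next, and at 0.300 CPM in PTPRK.C1089S replicate 4, with 0.566 next.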

How the results depend on the processing

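The named members gave 134 called results and 4213 values under alternatives, of which 3888 kept the call, 325 lost it and 0 changed sign. Of 51 counts of called members under alternatives other than leaving out a tumour, 44 lay within 1.5 times the reported count. The exceptions were PTPRK KO against WT, with 5 without a filter, 16 by DESeq2 and 15 with only both groups fitted in place of 8, PTPRK.RQ against PTPRK, with 8 by DESeq2 and 3 with only both groups fitted in place of 5, and, with only both groups fitted, PTPRK.C1089S against PTPRK with 29 and against PTPRK.RQ with 7. Leaving out 1 tumour gave 98 to 116 members for any difference, 3 to 12 for PTPRK KO against WT, 37 to 55, 46 to 69 and 64 to 79 for PTPRK, PTPRK.RQ and PTPRK.C1089S set against PTPRK KO, 2 to 6 for PTPRK.RQ against PTPRK, 23 to 69 for PTPRK.C1089S against PTPRK and 4 to 29 for PTPRK.C1089S against PTPRK.RQ. With groups split after 0.5 Mb, the lowest group median became -0.023 in PTPRK KO against WT, from 0.06, and -0.64 in PTPRK against PTPRK KO, and after 2 Mb it became -0.61 and -0.74 in PTPRK.RQ and PTPRK.C1089S, each against PTPRK KO. For the comparison of PTPRK.RQ with PTPRK it became -0.35 after 2 Mb. These groups are made of other members by construction. Same-numbered tumours of different groups deviated with correlations of -0.20 to 0.39, 18 of 46 over 0.1, and 4 of 25 tumours correlated best with their own number, so the numbers were not taken as pairs. With the replicate block the counts were 103 for any difference and 10, 51, 57, 78, 4, 30 and 11 for the 7 comparisons in the order above, and the rises within the 51 of PTPRK against PTPRK KO went from 12 to 6. The causes of the other differences were not tested. For members under 1 CPM depth limits what can be called.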
